A study of Mus musculus with 7 samples.

Results

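Fatty acid oxidation genes, ketone body genes and targets of the peroxisome proliferator-activated receptors (PPARs) were examined in sorted mouse Paneth cells. The group consists of 37 genes taken from a list by symbol. Of these, 35 had an array feature of their own, among 19938 genes so measured. Acsl1 and Acsl3 are not analysed here, the second because its only transcript cluster (the array's gene-level feature) also names Utp14b. Paneth cells are the secretory cells at the base of the small-intestinal crypt that release antimicrobial proteins and stand next to the stem cells. They were isolated by flow cytometry from mice aged 4 months and profiled on Affymetrix arrays, 1 per sample. In the calorie restricted group (4 arrays) mice received 60% of the ad libitum calories, and in the ad libitum group (3 arrays) they ate freely, for 4 to 7 weeks in both. Replicates are labelled biological. Strain, genotype, sex and fasting state are not stated in the labels, nor whether a sample was 1 mouse or a pool, so the p-values measure the spread between these samples only. A level below is a log2 expression value, and a difference is the calorie restricted mean less the ad libitum mean, in log2 units, ± the standard error (SE) of the limma fit. Such values depend on the probes, so levels of different genes were not ranked.

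Long-chain fatty acids are activated to acyl-CoA by acyl-CoA synthetases, pass into mitochondria on carnitine, and are shortened there by acyl-CoA dehydrogenases, hydratases, hydroxyacyl-CoA dehydrogenases and thiolases, while electrons leave through the electron transfer flavoprotein. Peroxisomes run a parallel chain for very long and branched fatty acids. PPAR alpha and delta are nuclear receptors that bind fatty acids, pair with a retinoid X receptor on a direct repeat of AGGTCA with 1 base between the copies, and raise many of these genes during fasting. Absorptive enterocytes of the small intestine oxidise dietary fat and express this program strongly.

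Promoter windows were read to show what the members carry at their start sites. RefSeq windows (GRCm38.p6, 250 bases before to 50 after the gene start) were matched by symbol for 31 of the 37 genes, and Crat, Acaa2, Decr1, Hsd17b4, Acat1 and Angptl4 had none. The response element (AGGTCA, any 1 base, AGGTCA), searched on both strands, had 0 exact matches in the members' windows, against 0.0481% of all 27025 genes with a window. With up to 2 mismatches in the copies it occurred in 2 of 31 members, or 6.45%, against 4.40% of all genes. A single AGGTCA, which is part of the element, occurred in 12.9% of members, against 18.1% of all genes. The members with a near match were Plin2 and Etfa, whose sites read on the opposite strand were AGGTCAGGGGTCC and AGGGCAAAGGTAA. Counting the gene start as 0, they lay at -225 to -213 and at -77 to -65. The windows are printed 5′ to 3′ on the gene's strand: Pdk4 because it had the largest difference, Plin2 and Etfa for the near match, which stands in capitals, and Hadhb because it overlaps another member's window. In Hadhb the capitals mark the 228 bases shared with the window of Hadha, which is read from the other strand (chr5:30154931-30155230). None of these matches was tested for binding.
Pdk4 (chr6:5496229-5496528, minus strand): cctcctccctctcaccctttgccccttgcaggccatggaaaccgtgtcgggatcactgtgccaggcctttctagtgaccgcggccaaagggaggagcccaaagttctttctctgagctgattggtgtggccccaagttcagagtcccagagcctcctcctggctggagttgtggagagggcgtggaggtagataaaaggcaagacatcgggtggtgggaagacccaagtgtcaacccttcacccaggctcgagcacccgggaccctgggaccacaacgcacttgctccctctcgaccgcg
Plin2 (chr4:86670010-86670309, minus strand): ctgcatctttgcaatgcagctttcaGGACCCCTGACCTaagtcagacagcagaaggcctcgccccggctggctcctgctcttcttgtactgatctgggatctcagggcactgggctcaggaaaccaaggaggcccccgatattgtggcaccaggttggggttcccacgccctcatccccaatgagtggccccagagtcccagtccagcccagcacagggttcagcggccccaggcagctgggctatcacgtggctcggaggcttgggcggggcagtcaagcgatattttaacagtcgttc
Etfa (chr9:55512194-55512493, minus strand): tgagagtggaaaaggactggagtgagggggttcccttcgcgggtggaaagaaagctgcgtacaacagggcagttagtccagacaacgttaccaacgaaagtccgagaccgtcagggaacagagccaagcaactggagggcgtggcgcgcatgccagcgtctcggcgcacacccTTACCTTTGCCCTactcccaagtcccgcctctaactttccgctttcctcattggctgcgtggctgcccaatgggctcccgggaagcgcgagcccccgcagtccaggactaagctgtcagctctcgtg
Hadhb (chr5:30155003-30155302, plus strand): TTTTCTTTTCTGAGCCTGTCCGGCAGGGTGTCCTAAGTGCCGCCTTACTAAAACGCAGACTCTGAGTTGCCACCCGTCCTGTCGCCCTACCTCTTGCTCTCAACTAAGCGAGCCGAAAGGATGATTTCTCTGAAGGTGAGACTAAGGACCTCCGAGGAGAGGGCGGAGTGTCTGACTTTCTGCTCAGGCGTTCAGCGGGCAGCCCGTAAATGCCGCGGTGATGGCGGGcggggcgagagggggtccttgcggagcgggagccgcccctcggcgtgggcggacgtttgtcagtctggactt

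The mean of the 14 Paneth markers was 12.88 to 13.17 in calorie restricted arrays and 13.06 to 13.12 in ad libitum arrays. Values depend on the probes, so list means do not show how pure the sorted cells were. The lysozyme gene Lyz1 was at 14.31 ± 0.04 in calorie restricted arrays and 14.31 ± 0.02 in ad libitum arrays (SD, n = 4 and 3), and 0 of 14 Paneth markers passed the test (limma, adjusted p below 0.05). Markers of enterocytes moved with the diet. Of 26 measured, 25 had a positive difference, against 54.2% of all tested genes. The same test called 12 of 26 higher under calorie restriction, against 0.656% of all tested genes. Calorie restricted arrays all lay above ad libitum arrays in 20 of 26, against 7.14%. The enterocyte list was chosen with earlier results of these data known, so these counts are not independent support. The list mean was 11.83, 11.86, 11.88 and 11.62 in calorie restricted replicates 1 to 4. In ad libitum replicates 1 to 3 it was 10.87, 10.30 and 10.89. The groups of that mean did not overlap, as for 12 of the 34 tested members below. It was lowest in calorie restricted replicate 4 and ad libitum replicate 2. Within their diets these arrays were lowest for 2 and 0 of 16 mitochondrial and 4 and 4 of 7 peroxisomal genes. For ketone body genes the counts were 0 and 0 of 3, and for PPAR-induced genes 1 and 3 of 5. Over all tested genes the same arrays were lowest for 36.8% and 24.7%. The part of the enterocyte list in the differences of the members and of the other pathway genes was not tested. In bulk samples a change in the number of such cells and a change in RNA per cell cannot be told apart. The enterocyte list shares no gene with the members or the other pathway genes. Means of 8 further lists overlapped between calorie restricted and ad libitum arrays: goblet 13.16 to 13.39 against 13.20 to 13.36, enteroendocrine 10.35 to 11.22 against 10.39 to 10.97, tuft 8.45 to 9.79 against 9.00 to 9.73, stem 10.40 to 10.60 against 10.19 to 10.84, immune 6.65 to 6.82 against 6.81 to 6.87, stroma and vessel 7.53 to 7.76 against 7.63 to 7.90, smooth muscle 6.74 to 6.97 against 6.83 to 6.89, and liver 8.10 to 9.14 against 8.04 to 8.39. None of these lists had a called gene. The adipocyte list was at 7.09 to 7.26 against 6.83 to 6.99, without overlap. Its defining genes Adipoq, Lep and Retn had means below the filter level of 6.79, and its 1 called gene was the lipid droplet gene Cidec. Groups did not overlap in 3 of its 5 measured genes, which were Cidec, Lipe and Adipoq (5.30 to 5.35 against 5.07 to 5.22), and the part of this list in the results was not tested. Lipe is also among the other pathway genes described last. Array medians ran from 7.24 to 7.44.

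No member passed the test. Of 34 tested, 0 were higher and 0 were lower (limma, Benjamini-Hochberg adjusted p below 0.05 over 13409 genes), where 0.656% of all tested genes were called higher and 0.00746% lower. The values nonetheless lay mostly on one side. At an unadjusted p below 0.05, 12 of 34 had a positive and 0 a negative difference, against 6.89% and 2.41% of all tested genes. Every calorie restricted array lay above every ad libitum array for 12 of 34, or 35.3%, against 7.14% of all tested genes, and 0 lay the other way, against 3.03%. Of the 35 measured, 31 had a positive difference, against 47.4% of all measured and 54.2% of all tested genes. Their median was 0.20, against -0.01 over all measured and 0.01 over all tested genes. PPAR-induced genes had the largest median at 0.85, followed by the single synthetase Acsl5 at 0.50, the regulators at 0.37, the mitochondrial genes at 0.19, the peroxisomal genes at 0.17 and the ketone body genes at -0.01. Leaving the PPAR-induced genes aside, groups did not overlap in 8 of 29, or 27.6%. Without ad libitum replicate 3, 2 members were called (Pdk4 and Cpt2), and 19 of 34 had groups that did not overlap, against 10.6% of all genes tested in that setting. After centring arrays on their medians, which moved the median of all genes to 0.10, Eci2 alone was called and 19 of 34 did not overlap, again against 10.6%.

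**Figure D1:**
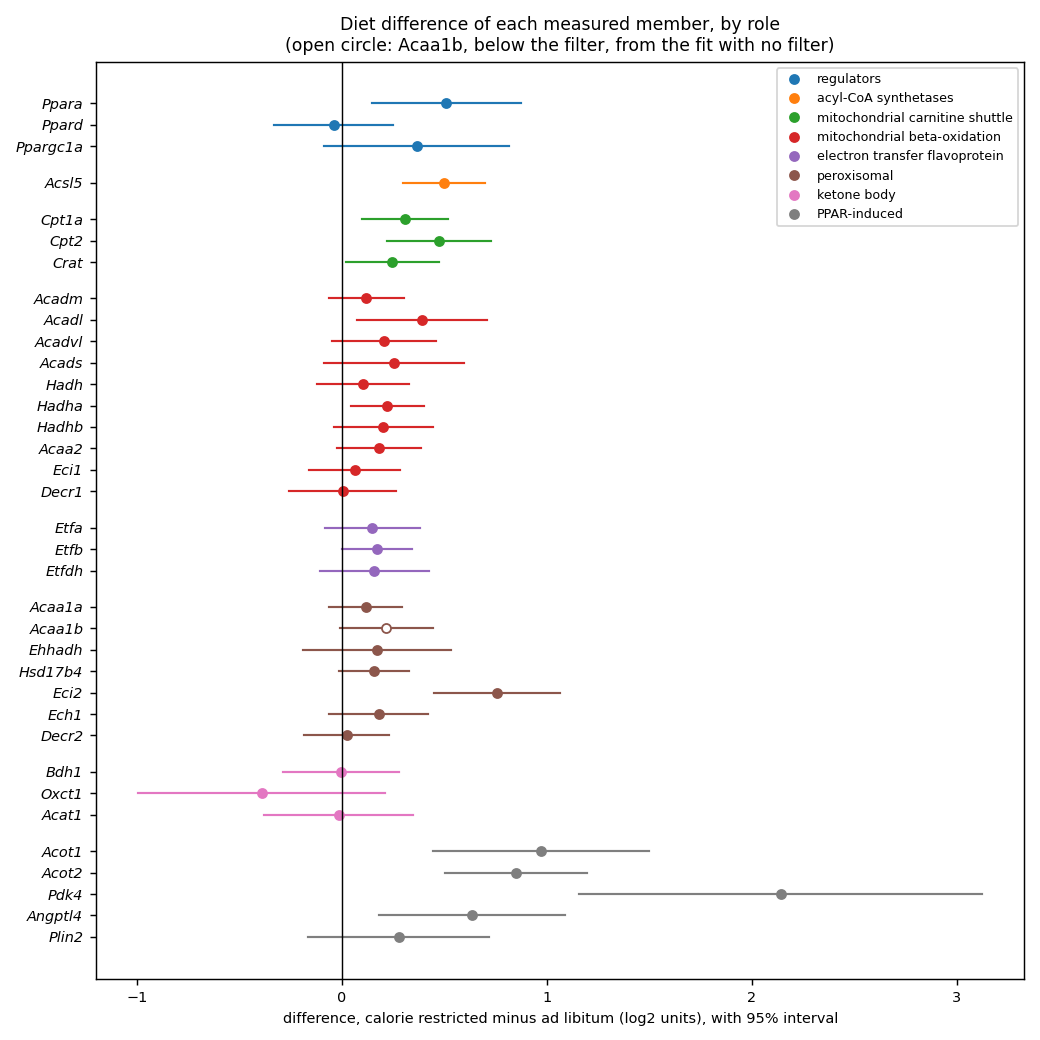
Difference between the diets for each of the 35 measured members in log2 units (points, with 95% intervals of the limma fit as lines), grouped by role from regulators at the top to PPAR-induced genes at the bottom. Pdk4 lies farthest to the right at 2.14, most mitochondrial and peroxisomal genes sit between 0 and 0.5, and the ketone body genes lie at or below 0.

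Pdk4, the kinase that shuts pyruvate dehydrogenase when fat is burned, had the largest difference of the group. It was at 9.84, 10.10, 10.90 and 9.71 in calorie restricted replicates 1 to 4, against 7.80, 7.20 and 8.98 in ad libitum replicates 1 to 3. The groups did not overlap, calorie restricted replicate 3 was highest, and ad libitum replicate 3 stood well above its own group. The difference was 2.14 ± 0.43, or 4.41-fold (95% interval 1.16 to 3.13, limma adjusted p = 0.0891), and 0.0224% of tested genes had a larger one. Without ad libitum replicate 3 it was 2.63 with an adjusted p of 0.0254, the lowest of the 14 alternatives, where it reached 0.345. The 7 arrays stood in the same order by Pdk4 as by the enterocyte list mean given above, and the part of that list in the difference was not tested.

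The acyl-CoA thioesterases Acot2 (mitochondrial) and Acot1 (cytosolic) release free fatty acids from acyl-CoA and are induced by PPAR alpha in mouse. Acot2 was at 11.56, 11.80, 12.05 and 11.57 under calorie restriction, against 11.09, 10.64 and 10.96 under ad libitum feeding. Acot1 was at 7.93, 8.20, 8.29 and 8.26, against 6.58, 7.48 and 7.53. Neither pair of groups overlapped, and for Acot1 ad libitum replicate 1 was the low array. The differences were 0.85 ± 0.15 for Acot2 (adjusted p = 0.0573) and 0.97 ± 0.23 for Acot1 (adjusted p = 0.152). The RefSeq table places Acot2, Acot1, Acot4, Acot3, Acot5 and Acot6 next to each other on chromosome 12, and these genes are known as close copies, so signal may be shared between their probes and the values of both are uncertain.

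Angptl4, a secreted inhibitor of lipoprotein lipase, was at 7.88, 7.80, 8.31 and 8.01 under calorie restriction, against 7.33, 6.98 and 7.79 under ad libitum feeding. The groups were separated by 0.0185, between calorie restricted replicate 2 and ad libitum replicate 3, and the difference was 0.64 ± 0.20 (adjusted p = 0.315). Plin2, which coats lipid droplets, was at 10.34, 10.25, 10.27 and 10.45, against 9.52, 10.22 and 10.40, so the groups overlapped and only ad libitum replicate 1 stood apart. Its difference was 0.28 ± 0.19 (adjusted p = 0.764), and 0.01 without that array.

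**Figure D2:**
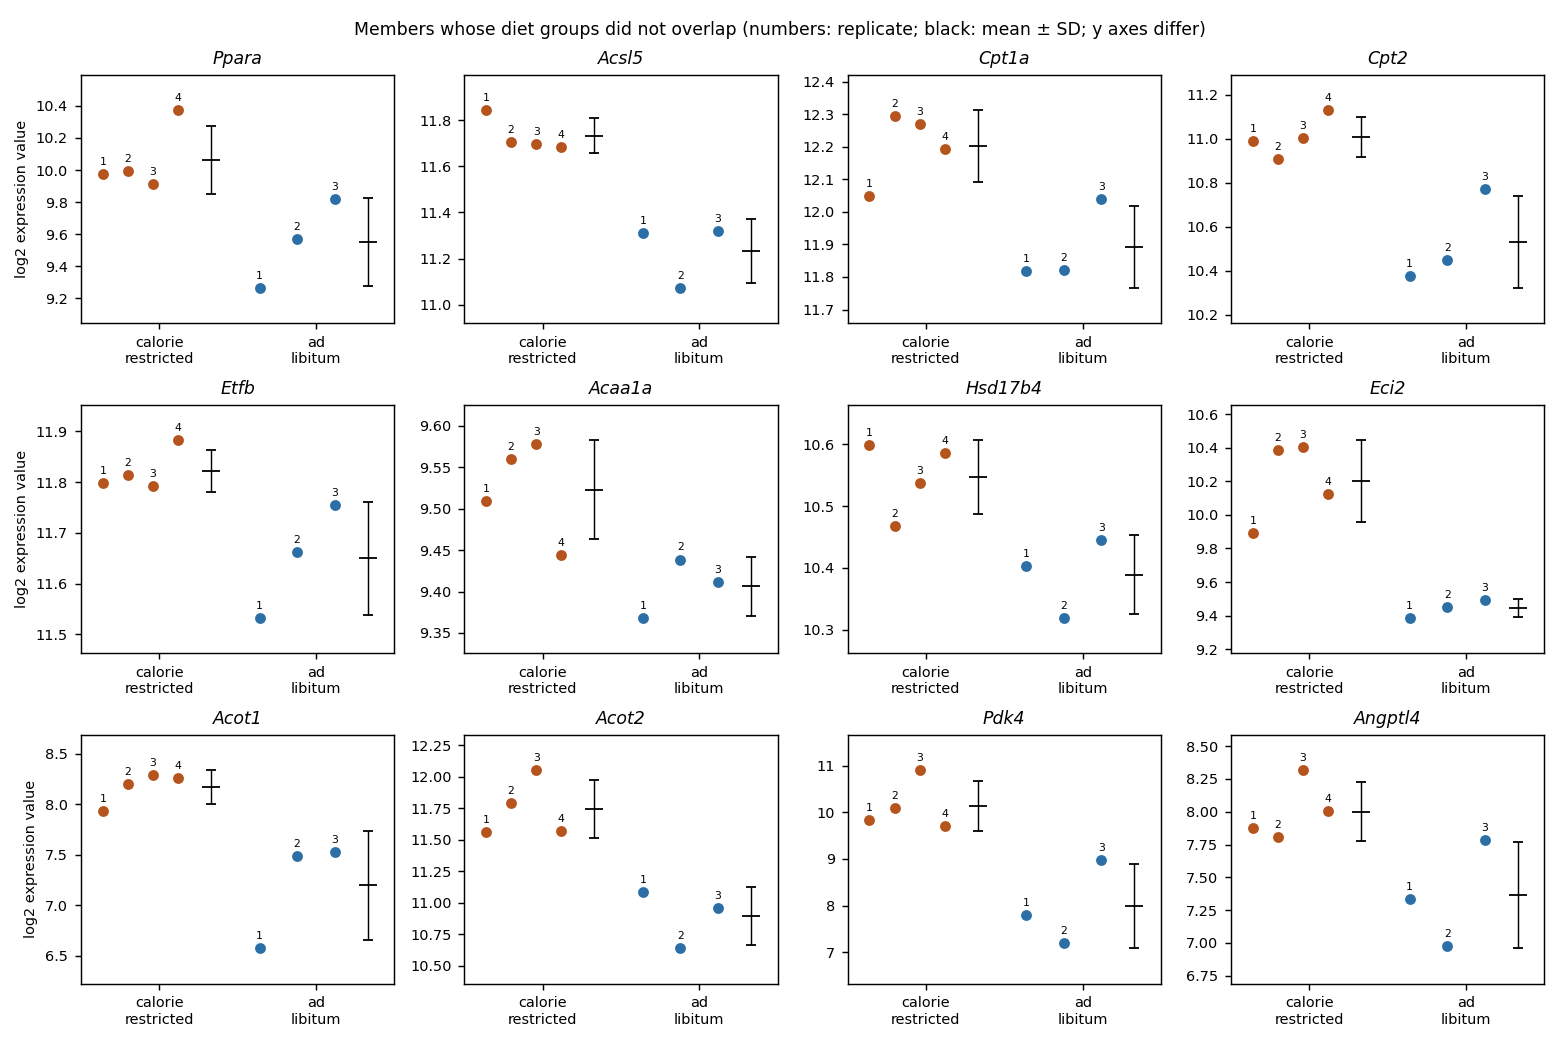
Log2 expression values of the 12 members whose diet groups did not overlap, 1 panel per gene with its own y axis, calorie restricted arrays left and ad libitum arrays right; numbers give the replicate and black bars the mean ± SD (n = 4 and 3). Pdk4 spans the widest range, from 7.20 to 10.90, and in Acaa1a, Cpt1a and Angptl4 the groups nearly touch.

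Among the regulators, Ppara was at 9.97, 9.99, 9.91 and 10.37 under calorie restriction, against 9.27, 9.57 and 9.82 under ad libitum feeding. Its groups did not overlap and differed by 0.51 ± 0.16 (adjusted p = 0.315). Ppard, the isotype common in the crypt, was at 11.57, 11.51, 11.46 and 11.20, against 11.72, 11.33 and 11.37, with overlapping groups and a difference of -0.04 ± 0.13 (95% interval -0.33 to 0.25). The coactivator Ppargc1a, which drives mitochondrial genes, was at 9.96, 9.52, 9.42 and 9.58, against 8.87, 9.25 and 9.65, and its groups overlapped (0.37 ± 0.20, adjusted p = 0.662). Its second, dimmer transcript cluster differed by 0.19.

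Acsl5, an acyl-CoA synthetase of the intestinal epithelium and the 1 synthetase measured, had the smallest p of the group. It was at 11.84, 11.71, 11.70 and 11.69 under calorie restriction, against 11.31, 11.07 and 11.32 under ad libitum feeding. The 4 calorie restricted arrays lay close together and 0.37 above the highest ad libitum array. The difference was 0.50 ± 0.09 (adjusted p = 0.0556, between 0.0548 and 0.240 over 14 alternatives).

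All 16 mitochondrial genes had positive differences, from 0.00 to 0.47, and 0 passed the test. Cpt2 of the carnitine shuttle had the largest. Cpt2, the inner-membrane carnitine palmitoyltransferase, was at 10.99, 10.91, 11.00 and 11.13 under calorie restriction, against 10.38, 10.45 and 10.77 under ad libitum feeding (0.47 ± 0.11, adjusted p = 0.145). Its groups did not overlap, and without ad libitum replicate 3 the difference was 0.59 with an adjusted p of 0.0493. Cpt1a, the outer-membrane enzyme that limits entry of fatty acids, was at 12.05, 12.29, 12.27 and 12.19, against 11.82, 11.82 and 12.04, and differed by 0.31 ± 0.09 (adjusted p = 0.271). Its groups were 0.0090 apart, between calorie restricted replicate 1 and ad libitum replicate 3. Crat, the carnitine acetyltransferase, was at 10.88, 10.96, 10.99 and 10.86, against 10.89, 10.58 and 10.55 (0.25 ± 0.10, adjusted p = 0.489). Here ad libitum replicate 1 reached the calorie restricted values and the other two ad libitum arrays lay below them.

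Within the beta-oxidation spiral 0 of 10 genes had separate groups, a count near the share of 7.14% over all tested genes. Acadl, the long-chain acyl-CoA dehydrogenase, had the largest difference and was at 10.57, 10.82, 11.08 and 10.94 under calorie restriction, against 10.29, 10.44 and 10.66 under ad libitum feeding (0.39 ± 0.14, adjusted p = 0.399). Calorie restricted replicate 1 lay below ad libitum replicate 3. The dehydrogenases for other chain lengths differed less, Acads (short chain) by 0.26 ± 0.15, Acadvl (very long chain) by 0.21 ± 0.11 and Acadm (medium chain) by 0.12 ± 0.08.

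Hadha and Hadhb encode the 2 subunits of the mitochondrial trifunctional protein and share the promoter stretch printed above. Hadha was at 12.14, 12.27, 12.29 and 12.32 under calorie restriction, against 11.96, 11.99 and 12.15 under ad libitum feeding. Hadhb was at 10.99, 11.06, 10.99 and 11.05, against 10.63, 10.76 and 11.06. In both genes ad libitum replicate 1 was lowest and ad libitum replicate 3 reached the calorie restricted range. Their differences were 0.22 ± 0.08 (adjusted p = 0.390) and 0.20 ± 0.11 (adjusted p = 0.645), and a second cluster of Hadhb differed by 0.21. The thiolase Acaa2 was at 12.21 to 12.49, against 12.06 to 12.23 (0.18 ± 0.09), and the hydroxyacyl-CoA dehydrogenase Hadh at 12.80 to 13.12, against 12.68 to 12.97 (0.11 ± 0.10). Eci1 (0.06 ± 0.10) and Decr1 (0.00 ± 0.11), which handle unsaturated fatty acids, had 95% intervals of -0.16 to 0.28 and -0.26 to 0.27.

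The electron transfer flavoprotein genes lay close together, at 0.15 ± 0.10 for Etfa, 0.17 ± 0.08 for Etfb and 0.16 ± 0.12 for the ubiquinone oxidoreductase Etfdh. Etfb was at 11.80, 11.81, 11.79 and 11.88 under calorie restriction, against 11.53, 11.66 and 11.75 under ad libitum feeding, the only separate groups of the 3 (adjusted p = 0.539).

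Of the 7 peroxisomal genes, all had a positive difference and 0 of 6 tested passed. Eci2, an enoyl-CoA isomerase also found in mitochondria, had the largest difference and was at 9.89, 10.39, 10.40 and 10.12 under calorie restriction, against 9.39, 9.45 and 9.50 under ad libitum feeding. The ad libitum arrays were tight, and the lowest calorie restricted array lay 0.40 above them. The difference was 0.76 ± 0.13, or 1.69-fold (adjusted p = 0.0570). It was 0.84 after median centring, with an adjusted p of 0.0487, and the adjusted p reached 0.257 over 14 alternatives.

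The other peroxisomal genes differed by 0.22 or less. Acaa1a, a peroxisomal thiolase, was at 9.51, 9.56, 9.58 and 9.44 under calorie restriction, against 9.37, 9.44 and 9.41 under ad libitum feeding, groups that were 0.0055 apart (0.12 ± 0.08, adjusted p = 0.752). Its close copy Acaa1b was at 6.18 to 6.35, against 5.82 to 6.20, below the filter level and therefore not among the 34 tested. Signal from Acaa1a could reach its probes. With no filter its difference was 0.22 ± 0.10 (adjusted p = 0.648).

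Hsd17b4, the second multifunctional enzyme of peroxisomes, was at 10.60, 10.47, 10.54 and 10.59 under calorie restriction, against 10.40, 10.32 and 10.45 under ad libitum feeding (0.16 ± 0.08, adjusted p = 0.598), with groups that did not overlap. Ehhadh, the first multifunctional enzyme and a PPAR alpha target in mouse liver, was at 10.61, 10.73, 10.67 and 10.24, against 10.70, 10.23 and 10.25. Here 1 array of each diet went against its group (0.17 ± 0.16, adjusted p = 0.830). Ech1, a dienoyl-CoA isomerase also found in mitochondria, differed by 0.18 ± 0.11, and the dienoyl-CoA reductase Decr2 by 0.03 ± 0.09 (95% interval -0.18 to 0.23).

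The 3 ketone body genes had no positive difference. Oxct1, which activates acetoacetate for use as fuel, was at 9.63, 9.03, 8.68 and 9.84 under calorie restriction, against 9.54, 9.70 and 9.82 under ad libitum feeding. Calorie restricted replicates 2 and 3 lay below all ad libitum arrays, and replicates 1 and 4 within or above their range. The difference was -0.39 ± 0.26 (95% interval -0.99 to 0.21, adjusted p = 0.751). Bdh1, which interconverts acetoacetate and hydroxybutyrate, was at 11.03, 11.03, 10.66 and 11.13, against 10.87, 10.92 and 11.10 (-0.00 ± 0.12). The acetoacetyl-CoA thiolase Acat1 was at 11.28, 11.09, 10.76 and 11.38, against 10.98, 11.07 and 11.36 (-0.01 ± 0.16). The 95% intervals of Bdh1 and Acat1 were -0.29 to 0.28 and -0.38 to 0.35, and both differences were above 0 when the third array of either diet was left out or arrays were centred on their medians.

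Arrays within a diet differed in a way that many members shared. Ad libitum replicate 1 was the lowest ad libitum array for 14 of 16 mitochondrial and 3 of 3 ketone body genes, against 35.1% of all tested genes, and ad libitum replicate 3 was the highest for 13 of 16 and 3 of 3, against 25.5%. Among calorie restricted arrays, replicate 3 was the lowest for 10 of 16 mitochondrial and 3 of 3 ketone body genes, against 27.0% of all tested genes. The same array was the highest for 4 of 5 PPAR-induced genes, against 22.7%. Replicate 4 was the highest for 9 of 16 mitochondrial and 3 of 3 ketone body genes, against 32.6%. For peroxisomal genes, ad libitum replicate 1 was the highest of its group for 4 of 7, or 57.1%, against 47.7% of all tested genes. Calorie restricted replicate 4 was the lowest of its group for 4 of 7, against 36.8%. With 7 genes these counts do not set the peroxisomal order apart from that of all genes. Genes on 1 array share its RNA and labelling, so these counts describe the 7 arrays and carry no test.

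**Figure D3:**
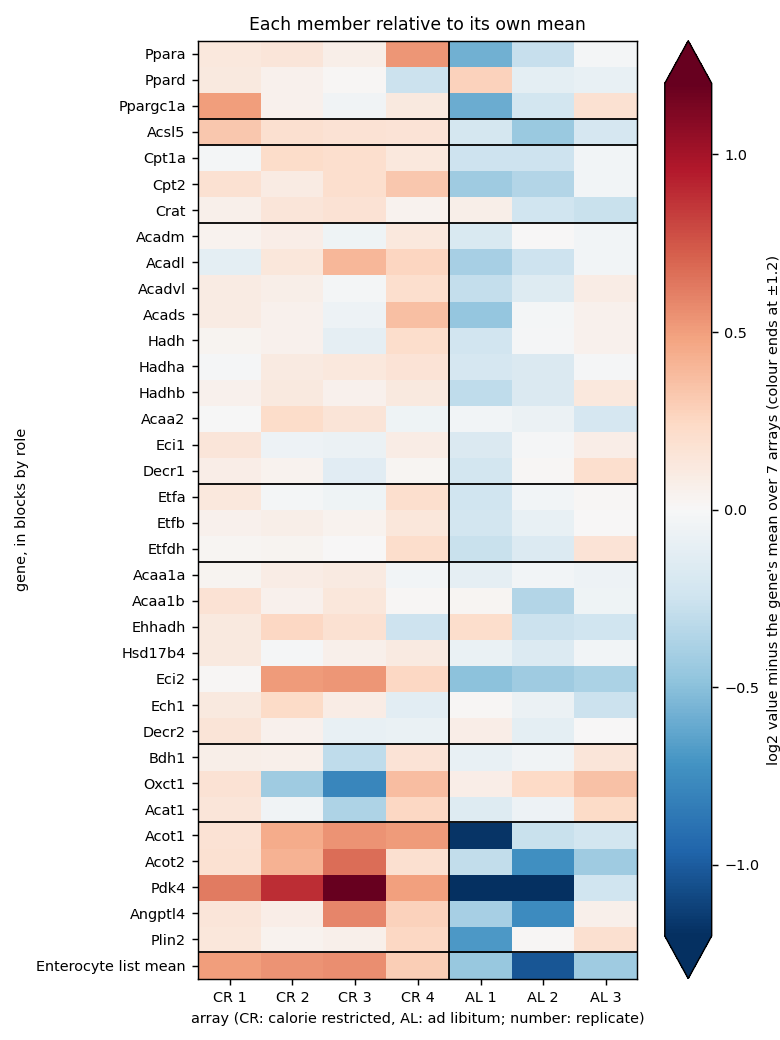
Log2 value of each measured member minus its mean over the 7 arrays (colour, ending at ±1.2), with calorie restricted arrays left of the line, ad libitum arrays right, and the enterocyte list mean in the last row. Pdk4 and Acot1 show the deepest colours, ad libitum replicate 1 is blue for most mitochondrial genes, and the ketone body block is blue in calorie restricted replicate 3.

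Other genes of the same pathways were taken from a further list of 77, of which 70 were measured and 63 tested. This list was chosen with earlier results of these data known, so its counts are not independent support. Of the 63, 6 rose under calorie restriction and 0 fell (limma, adjusted p below 0.05, against 0.656% and 0.00746% of all tested genes). The enterocyte list had a median difference of 1.07, and its part in the differences of these genes was not tested. Cd36, the fatty acid translocase, was at 7.73, 8.04, 7.88 and 7.52 under calorie restriction, against 6.13, 6.16 and 6.53 under ad libitum feeding (1.52 ± 0.15, adjusted p = 0.00839). All 3 ad libitum values lay below the filter level of 6.79, so Cd36 was tested only because of its calorie restricted values, and the size of its difference is uncertain. The fatty acid transport protein Slc27a4 was at 10.86, 10.90, 10.92 and 10.66, against 10.08, 9.64 and 9.94 (0.94 ± 0.12, adjusted p = 0.0193). Creb3l3, a transcription factor of liver and intestine that works with PPAR alpha, was at 9.64, 9.73, 9.82 and 9.63, against 8.45, 8.09 and 8.63 (1.31 ± 0.13, adjusted p = 0.00966). Cd36, Slc27a4 and Creb3l3 had groups separated by more than the spread within either diet.

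The other genes that rose were 2 thioesterases and an epoxide hydrolase. Acot12, the cytosolic acetyl-CoA thioesterase, had the largest change and was at 9.19, 9.43, 9.64 and 9.65 under calorie restriction, against 8.08, 7.32 and 7.61 under ad libitum feeding (3.51-fold, adjusted p = 0.0106). Acot4, a peroxisomal thioesterase of the chromosome 12 cluster whose signal is uncertain for the same reason, was at 8.31, 8.22, 8.27 and 8.39, against 7.36, 6.94 and 7.66 (0.98 ± 0.16, adjusted p = 0.0415). Ephx2, the soluble epoxide hydrolase and a PPAR alpha target, was at 10.26, 10.26, 10.25 and 9.92, against 9.17, 9.19 and 9.37 (0.93 ± 0.11, adjusted p = 0.0157). The call was lost in 8 of 13 alternatives for Acot4, in 5 of 14 each for Ephx2 and Slc27a4, in 3 of 14 for Creb3l3, in 2 of 14 for Acot12 and in 1 of 13 for Cd36. The fit with the replicate number as a block lost all 6 and called 0 genes in all.

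Next by p, without passing, came the fatty acid omega-hydroxylases Cyp4f14 (0.92 ± 0.16, adjusted p = 0.0570) and Cyp4a10 (0.60 ± 0.12, adjusted p = 0.0784). The hormone-sensitive lipase Lipe (0.50 ± 0.10), the nuclear receptor Pparg (0.62 ± 0.14), the carnitine-acylcarnitine carrier Slc25a20 (0.63 ± 0.15) and the peroxisome division gene Pex11a (0.41 ± 0.10) followed. Pparg was at 9.61, 9.95, 10.00 and 10.13 under calorie restriction, against 9.48, 9.24 and 9.19 under ad libitum feeding. Groups did not overlap in 19 of the 63, or 30.2%, against 7.14% of all tested genes, and in each the calorie restricted arrays were the higher ones. Over the 70 measured the median difference was 0.12. Leaving out calorie restricted replicate 1, 2 or 3 lowered the number called to 2, 3 or 1.

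**Figure D4:**
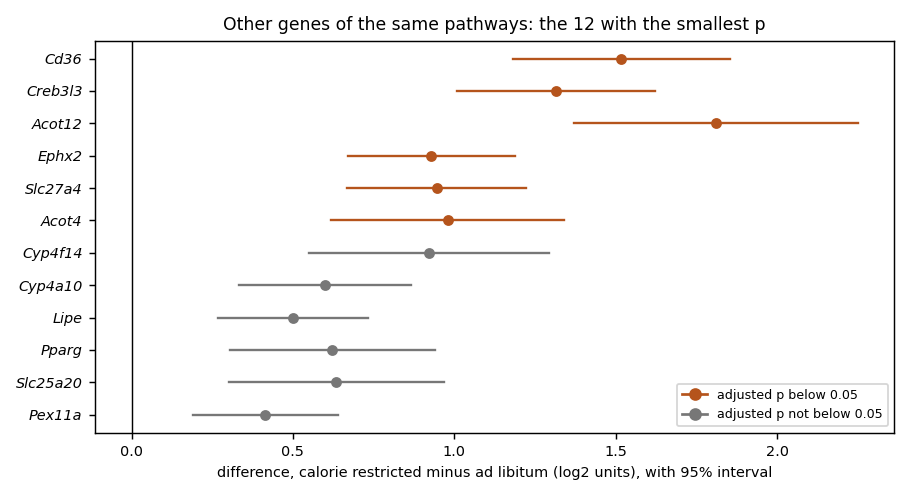
Difference between the diets in log2 units, with 95% intervals, for the 12 other pathway genes with the smallest p. The 6 coloured genes passed the adjusted threshold of 0.05, with differences from 0.93 for Ephx2 to 1.81 for Acot12.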

How the data were processed

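Total RNA of 7 sorted Paneth cell samples was hybridised to Affymetrix arrays. The authors deposited log2 expression values per transcript cluster, which came from Expression Console, per the submitters' processing notes. Their background correction and normalization are not stated, and the log2 scale was read from the range (2.97 to 14.67). No further scaling was applied, and the number of arrays limits the precision. Platform annotation gave 21789 of 35556 clusters 1 symbol, 1621 several and 12146 none. The brightest single-symbol cluster of each gene was kept. Genes whose mean was under the 40th percentile of cluster means (6.79) were dropped, and 13409 remained.

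Diets were tested in limma 3.58.1 under R 4.3.3 (lmFit, then eBayes with an intensity trend and no covariate), adjusting by Benjamini-Hochberg over all tested genes. On simulated data the fit called 97 of 100 genes changed by 2 log2 units, 84 of 100 changed by 1 and 10 of 13209 unchanged. The simulated noise was independent for each gene and array, so it cannot show the effect of deviations that real arrays share. Members, gene lists and tests were chosen with earlier results of these data known. Named genes are all 37 members and the 12 other pathway genes of smallest p. Marker lists are given by counts and ranges. Other settings tried were quantile normalization, median centring, no filter, a 60th percentile filter, averaging all clusters of a gene, no intensity trend, a replicate block, and dropping 1 array at a time. Identity between copies such as Acot1 and Acot2 was not computed. Summaries and figures used Python 3.11.15 and matplotlib 3.10.9.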

Additional observations from a re-analysis of the deposited data

Results flagged for a closer look

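Among 47 genes examined, 4 had 1 calorie restricted array far from the other 3 (gap over range above the 95% critical value of Dixon's test, which chance exceeds in about 1 in 20 groups). Acsl5 was highest in calorie restricted replicate 1 (ratio 0.866, a gap of 0.14 log2 units). Etfdh was highest in replicate 4 (ratio 0.853, a gap of 0.18). Ephx2 was lowest in replicate 4 at 9.92 (ratio 0.966, a gap of 0.33). Cyp4f14 was highest in replicate 1 at 11.96 (ratio 0.932, a gap of 0.36).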

How the results depend on the processing

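Of 34 tested members, 28 kept the sign of their difference in every alternative run and 6 did not. Ppard was at 0.047 after median centring, 0.039 with the replicate block and -0.11 to 0.086 without 1 array. Eci1 was at -0.0058 to 0.12 without 1 array. Decr1 was at -0.033 after quantile normalization, -0.0016 with the replicate block and -0.10 to 0.10 without 1 array. Decr2 was at -0.018 after quantile normalization and -0.027 to 0.070 without 1 array. Bdh1 was at 0.083 after median centring and -0.058 to 0.097 without 1 array, and Acat1 at 0.072 and -0.098 to 0.11. The ketone body median was 0.072 after median centring and -0.098 to 0.097 without 1 array. The cause was not tested. Members called higher numbered 1 after median centring and 0 to 2 without 1 array. Members with separate groups numbered 19 after median centring, 9 after quantile normalization and 12 to 19 without 1 array, where the share over all genes tested was 10.6%, 6.73% and 7.88% to 14.2%, against 7.14% with all arrays as deposited. The 14.2% was without ad libitum replicate 1, where 14 members had separate groups. The mitochondrial median was 0.28 after median centring and 0.11 to 0.25 without 1 array. Other pathway genes called higher numbered 0 with the replicate block and 1 to 7 without 1 array. Over all genes, calls numbered 53 higher and 0 lower after quantile normalization, 110 and 0 after median centring, 90 and 2 with no filter, and 69 and 0 with the 60th percentile filter. With the replicate block they were 0 and 0 in limma, while 988 genes had an unadjusted p below 0.05, and without 1 array they ranged from 12 to 97 and from 0 to 9. Acot1 and Angptl4 were not tested with the 60th percentile filter. Arrays that share a replicate number did not deviate alike: deviations from the group mean correlated at -0.13, -0.27 and -0.55 across genes for replicates 1, 2 and 3. The highest correlation over all cross-diet pairs was 0.64. Whether arrays were paired or batched under other numbers was not tested. Calorie restricted replicate 4 has no partner in the replicate block. No detection call was used, so values near the filter level have no stated background.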
